A study of Rattus norvegicus with 3 samples.

Results

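The common carotid artery of the rat was compared between an uninjured state and day 7 of the response to balloon injury, a model of angioplasty: a balloon drawn along the vessel removes the endothelium and overstretches the wall. The comparison rests on 2 of the 3 arrays available here, 1 of an uninjured artery and 1 of an artery taken at day 7, both chosen by their titles. The third array, from day 21, is used in a few sentences only. Both groups are male Wistar rats, and RNA came from the whole common carotid artery, with all of its layers. No genetic change or drug is named for either group, and the age of the animals is not given. The submitters describe independent experiments with different rats at each time, and the other arrays are not analysed here.

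There is therefore 1 array on each side, with no replicate of either group. No test was possible and no p-value is given. Each difference is one between 2 arrays, and the spread between animals cannot be read from it. The arrays also differ in design and scan and in the release of the scanner software. These differences and the injury cannot be told apart. A second limit is that the whole artery was measured: fewer cells of a type and less RNA of that type per cell cannot be told apart in any result below.

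A level is the processed signal of a probe divided by the array's own 75th percentile over the probes that both designs hold, so that a level of 1 is a fairly bright probe. Levels of a gene are given for the uninjured array first and for the day 7 array second, and levels of different probes are not comparable with each other. The log2 ratio is that of day 7 over uninjured, and the value after ± is the SD that replicate spots give for it. That SD covers spotting and reading only. It was small beside the disagreement between probes: where a gene had several measured probes (105 genes), the ratios of its probes had an SD of 0.985, and 48 of these genes had probes of opposite sign. A gene well above background on only 1 array is said to be seen on that array alone. It has no ratio, and a lower bound of its fold is given as "at least". A gene is called higher or lower from 2-fold, with no statement on chance.

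After balloon injury of this artery, smooth muscle cells of the media are known to leave the contractile state, divide and migrate, while blood cells enter the wall and the endothelium regrows from the edges of the stripped stretch. Contractile cells make actin filaments with their tropomyosins, calponin and transgelin, and the channels and receptors that set tone. Dividing and migrating cells switch to the machinery of DNA synthesis and mitosis and to the secretion of a new matrix. Macrophages in injured arteries take up lipid and cell debris through the lysosome.

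Among the groups with higher medians at day 7 were genes of mitosis, macrophages, antigen presentation and complement. Among those with lower medians were genes of the contractile filament, heat shock proteins and the mitochondrial respiratory chain. Of 7798 genes named through RefSeq, 5264 were well above background on both arrays. A ratio of 2-fold or more upward was found for 847 of these genes (16.1%) and downward for 861 (16.4%), with 3556 in between. At 4-fold the counts were 223 higher (4.24%) and 214 lower (4.07%), and at 16-fold 35 and 6. The median log2 ratio was -0.01 and the quartiles were -0.69 and 0.68. Another 1092 genes were well above background at day 7 alone, of which 500 had a bound of at least 2-fold (6.41% of the 7798 genes), and 377 in the uninjured artery alone, of which 332 had such a bound (4.26%). The 2 arrays correlated across genes at r = 0.874, as a description of arrays that share their probes.

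**Figure D1:**
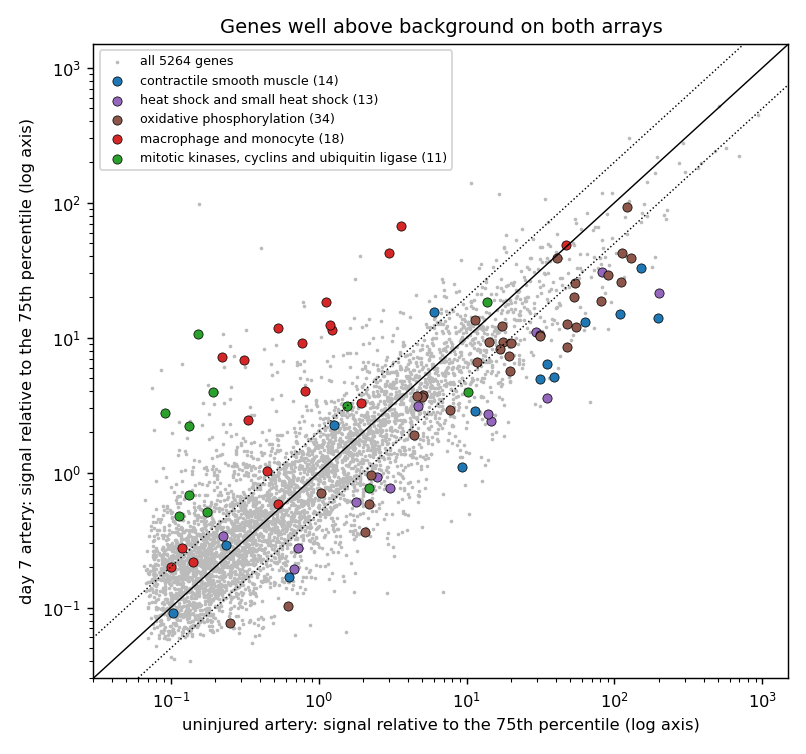
Level of each of the 5264 genes on the uninjured array (horizontal) and on the day 7 array (vertical), both on log axes. The solid line marks equal levels and the dotted lines 2-fold. Macrophage genes (red) lie on or above the solid line and most mitotic genes (green) above the upper dotted line, while contractile (blue), heat shock (purple) and respiratory chain genes (brown) lie mostly on or under the lower one.

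How many genes counted as higher or lower changed with the scaling, and the directions below are those under scaling on the shared probes. When the percentile is taken over everything on an array's own design, every day 7 ratio is shifted by -1.22, and 181 genes are then higher and 3132 lower. The authors' deposited table has a median log2 ratio of -0.72 over 4116 of these genes. A list with a median between 0 and about 1.2 therefore changes sign under the first of these. Of the 57 gene lists described, 32 have a median above 0, and 12 of these stay above 0 under every alternative that gave them a value, which is all 10 for 10 lists and 9 for the MHC class II and sympathetic neuron lists. Of the 25 lists with a median below 0, 19 stay below it under all 10. The ratio also moved with signal: over 5 equal classes of mean signal the median was 0.16 in the dimmest and -0.27 in the brightest. With a loess fit of the ratio on signal, 827 genes were higher and 822 lower, of which 737 and 724 were also called without it. List medians moved under that fit, that of the collagens from 0.42 to 0.92 and that of glycolysis from -0.13 to 0.27. The part of signal in each single difference was not tested.

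**Figure D2:**
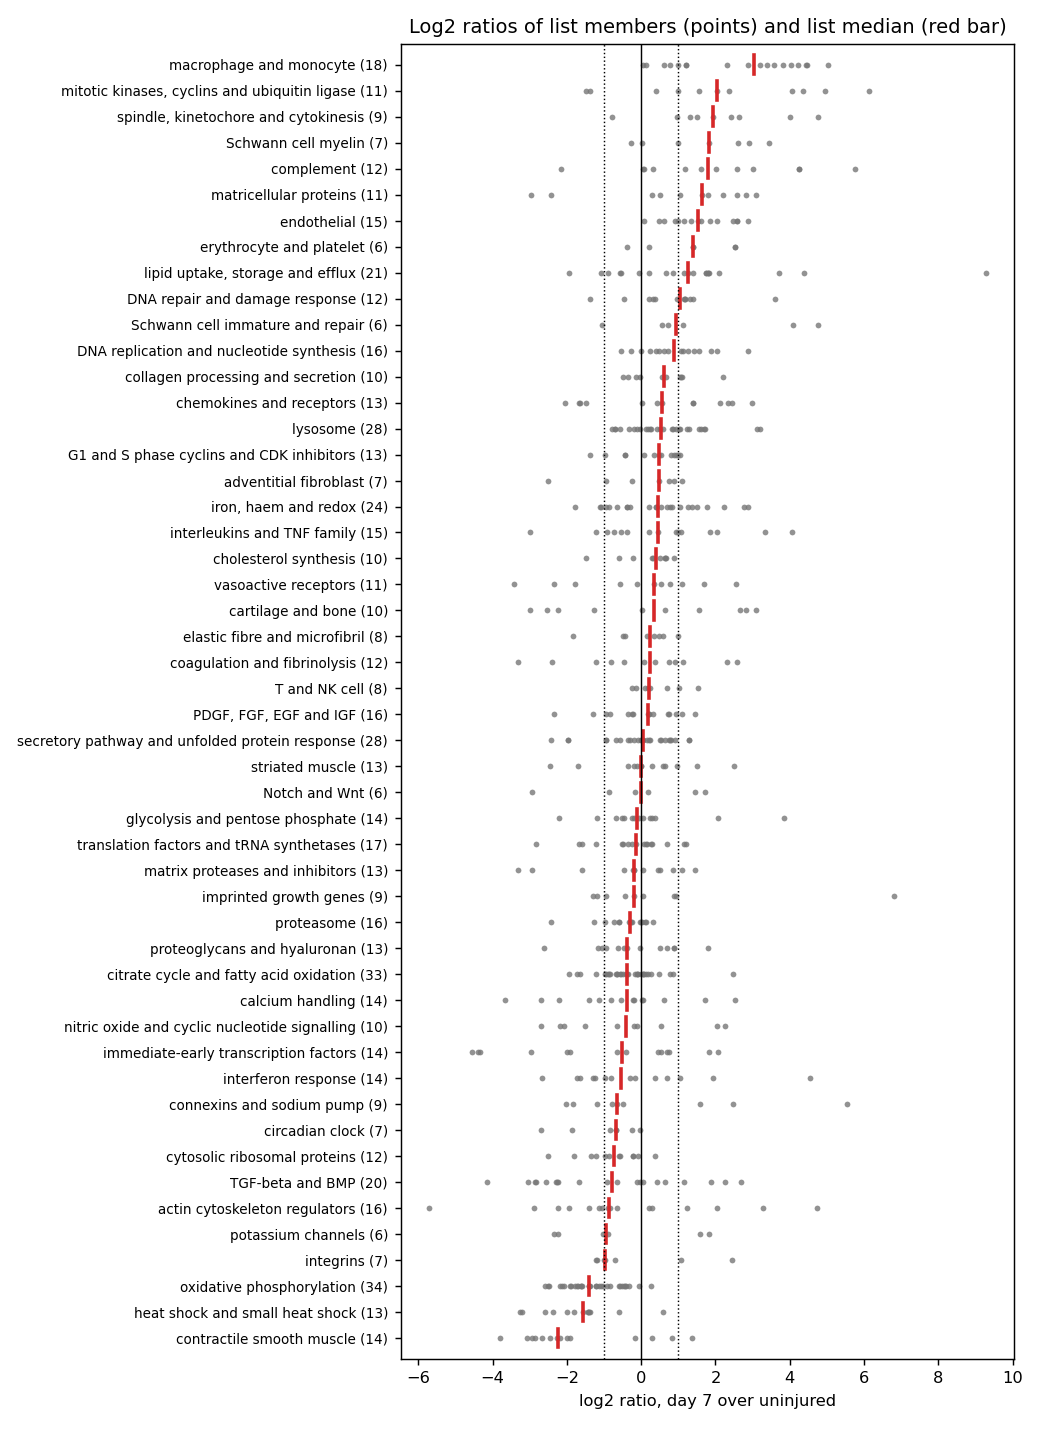
Log2 ratio of day 7 over uninjured for each measured member (points) of the gene lists with at least 6 measured members, ordered by the list median (red bars), with the number measured in brackets. Dotted lines mark 2-fold; macrophage genes had the highest median (3.05) and contractile smooth muscle genes the lowest (-2.23).

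Genes of mitosis were among those with higher ratios at day 7. Among mitotic kinases, cyclins and parts of the ubiquitin ligase that ends mitosis, 7 of 11 measured genes were at least 2-fold higher and 2 lower, with a median of 2.05. The kinase Cdk1, which drives entry into mitosis, had a level of 0.153 on the uninjured array and 10.7 at day 7, a log2 ratio of 6.13 ± 0.20. Its partner cyclin B1 (Ccnb1) was near the floor of the uninjured array at 0.0911 and at 2.79 at day 7 (4.94 ± 0.33). Ube2c, the conjugating enzyme that marks mitotic cyclins for destruction, went from 0.193 to 3.98 (4.37 ± 0.20). Securin (Pttg1), which holds sister chromatids together until anaphase, had levels of 0.132 and 2.2 (4.06 ± 0.25). These 4 genes were dim in the uninjured artery and at or above the 75th percentile of the array at day 7. The polo-like kinase Plk1 differed less, with levels of 0.133 and 0.681 (2.35 ± 0.24). Pkmyt1 and Wee1, the kinases that hold Cdk1 inactive, were the 2 members that were lower, with ratios of -1.49 ± 0.12 and -1.37 ± 0.13, although Wee1 was at 1.09 in the authors' deposited table.

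The spindle and cytokinesis list behaved alike, with a median of 1.94, 7 of 9 measured genes higher and none lower. The kinesin Kif20a, which works at the midzone of the dividing cell, had levels of 0.268 and 7.27 (4.76 ± 0.19), and the kinetochore protein gene Cenpt 0.135 and 2.16 (4.0 ± 0.24). Kif23 and Racgap1 form the centralspindlin complex that builds the cleavage furrow. Kif23 was at 0.216 and 1.35 (2.64 ± 0.18) and Racgap1 at 0.299 and 1.6 (2.42 ± 0.17), so that both partners of the complex were higher on the day 7 array. Aspm, which focuses spindle poles, was in no list but among the 30 highest genes, with levels of 0.103 and 1.98 (4.27 ± 0.28). A further 6 spindle genes were well above background at day 7 alone with bounds of 2-fold or more, among them survivin (Birc5, at least 5.19-fold higher) and the kinetochore gene Nuf2 (at least 3.87-fold).

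DNA replication stood less far from the rest. Of 16 measured genes 8 were higher and none lower, with a median of 0.89 that turned to -0.33 under scaling on each array's own design. Chaf1b, which deposits histones behind the fork, was at 0.224 and 1.63 (2.86 ± 0.18), the flap endonuclease Fen1 at 0.348 and 1.42 (2.03 ± 0.15), and the helicase cofactor Cdc45 at 0.269 and 0.991 (1.88 ± 0.18). The sliding clamp Pcna was within 2-fold at 2.32 and 3.22 (0.47 ± 0.13). Another 5 replication genes were seen at day 7 alone with bounds of 2-fold or more, such as the helicase subunit Mcm6 (at least 6.74-fold higher) and thymidylate synthase (Tyms, at least 5.35-fold). In the list of DNA repair genes 6 of 12 were higher and 1 lower, among them the histone variant H2ax that marks broken DNA (0.364 and 0.953, 1.39 ± 0.15). That list's median of 1.05 turned to -0.17 under own-design scaling and to -0.18 in the authors' deposited table.

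Regulators of the G1 and S phases were mostly within 2-fold: 2 of 13 were higher and 1 lower, with a median of 0.49, below 0 under own-design scaling. The member that was lower was Cdkn1a, the p21 inhibitor of cyclin-dependent kinases, with levels of 13 and 5.01 (-1.38 ± 0.11, but 0.82 in the authors' deposited table). The retinoblastoma gene Rb1, which holds cells in G1, was at 2.23 and 1.13 (-0.97 ± 0.12). Mybl2, the transcription factor that acts at late cell cycle promoters, was seen at day 7 alone and was at least 12.7-fold higher.

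Promoters of the mitotic genes are shown because these genes moved together and because late cell cycle promoters are known for paired elements. The windows are RefSeq promoters on GRCr8, 250 bases before to 50 bases after the start, printed in the direction of the gene. Capitals mark TTTGAA, the core of the cell cycle homology region, and CCAAT, the site of NF-Y, on either strand (the reverse forms are TTCAAA and ATTGG). Cdk1 lies at chr20:19265043-19265342 on the plus strand, Ccnb1 at chr2:33655176-33655475 on the minus strand and Pttg1 at chr10:28406277-28406576 on the minus strand.
Cdk1: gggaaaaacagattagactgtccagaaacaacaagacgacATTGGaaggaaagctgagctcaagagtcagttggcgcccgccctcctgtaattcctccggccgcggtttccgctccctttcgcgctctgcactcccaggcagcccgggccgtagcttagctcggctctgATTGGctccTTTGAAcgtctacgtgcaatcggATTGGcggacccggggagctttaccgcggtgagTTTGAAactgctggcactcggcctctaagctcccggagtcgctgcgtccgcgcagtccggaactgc
Ccnb1: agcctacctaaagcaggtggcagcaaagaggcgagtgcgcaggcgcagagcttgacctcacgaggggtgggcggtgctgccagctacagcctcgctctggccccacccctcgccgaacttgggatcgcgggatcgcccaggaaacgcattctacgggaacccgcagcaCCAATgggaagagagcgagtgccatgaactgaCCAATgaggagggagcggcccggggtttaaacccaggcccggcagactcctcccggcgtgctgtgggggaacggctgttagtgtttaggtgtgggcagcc
Pttg1: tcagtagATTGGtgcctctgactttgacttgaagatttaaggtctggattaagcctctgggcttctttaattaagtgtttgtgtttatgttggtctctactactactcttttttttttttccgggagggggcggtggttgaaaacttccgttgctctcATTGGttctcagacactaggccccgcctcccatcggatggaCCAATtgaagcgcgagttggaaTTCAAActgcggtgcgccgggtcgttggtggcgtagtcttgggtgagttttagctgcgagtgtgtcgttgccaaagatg
Of the 21 genes of the mitotic and spindle lists that were higher, bounds included, 15 had a promoter in the table, and 11 of these held TTTGAA. Of their 11 other members 8 had a promoter and 6 of them held it too, against 11.2% of the 4316 promoters of measured genes and 18.1% of all 27457. CCAAT was in 12 of the 15 and in 7 of the 8 other members, against 37.9% and 37.7%. Members that were not called higher thus held both motifs about as often. They are not a set of unchanged genes. Cdc20 (0.999 ± 0.14) and Kif15 (0.957 ± 0.48) were just under 2-fold, and Prc1 was seen at day 7 alone. Cdca8, Hmmr and Smc2 were well above background on neither array. A match is a description of letters, not a site in use. Ccnb1 held CCAAT and no TTTGAA in this window.

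Genes of macrophages and monocytes had a median of 3.05, with 13 of 18 measured genes higher, none lower, and 6 more seen at day 7 alone with bounds of 2-fold or more. Tyrobp, the signalling adaptor of myeloid receptors, was already detected in the uninjured artery at 3.61 and reached 67.7 at day 7 (4.23 ± 0.14). Slamf9, a receptor of the SLAM family on myeloid cells, had levels of 0.223 and 7.22 (5.02 ± 0.17). Fgr, a myeloid kinase of the Src family outside the list, was at 0.165 and 3.29 (4.32 ± 0.21). Gpnmb, a glycoprotein of lipid-laden macrophages, was at 0.532 and 11.7 (4.46 ± 0.17). Csf1r, the receptor for the macrophage growth factor, was at 0.449 and 1.03, a smaller difference (1.2 ± 0.15) that was -0.02 under own-design scaling. The inhibitory Fc receptor Fcgr2b was at least 61.6-fold higher and the integrin chains Itgb2 and Itgam at least 16.1-fold and 10.1-fold. Summed over the 24 members on both designs, the level was 63.8 on the uninjured and 255.7 on the day 7 array. The actin regulators of leukocytes followed: coronin 1A (Coro1a) had levels of 0.228 and 6.08 (4.74 ± 0.19) and the capping protein Capg 1.03 and 10.1 (3.29 ± 0.16).

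A further 3 immune groups stood above the median of all genes by more than 2-fold. Class II antigen presentation had only 3 measured genes, all higher. Its member RT1-Ba was well above background on neither array, and RT1-DOa was seen at day 7 alone (at least 1.73-fold higher). The class II chain RT1-Bb was at 0.0859 and 5.75 (6.07 ± 0.38), and Cd74, the invariant chain that guards the peptide groove, at 0.322 and 11.3 (5.13 ± 0.19). In the complement list (median 1.80) 8 of 12 genes were higher and 1 lower. Component C2, the protease of the classical pathway, was at 0.12 and 6.42 (5.74 ± 0.26), the central component C3 at 0.206 and 3.96 (4.26 ± 0.20) and the anaphylatoxin receptor C5ar1 at 0.43 and 8.19 (4.25 ± 0.17). The recognition chains C1qa and C1qc had ratios of 3.01 ± 0.16 and 2.57 ± 0.16. Cd59b, which shields host cells from the membrane attack complex, was the member that was lower, at 12.3 and 2.77 (-2.15 ± 0.11). All 5 measured neutrophil genes were higher, with a median of 2.49, led by lipocalin 2 (Lcn2, 0.143 and 1.23, 3.1 ± 0.22) and the oxidase subunit Cybb (0.207 and 1.32, 2.67 ± 0.19), which macrophages make too.

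Interleukin 1 family genes were uneven. The receptor antagonist Il1rn, which blocks the interleukin 1 receptor, was at 0.257 and 4.32 (4.07 ± 0.20), interleukin 18 (Il18) at 0.0924 and 0.931 (3.33 ± 0.33) and interleukin 1 beta (Il1b) at 0.106 and 0.438 (2.05 ± 0.10). Il1rl1, the receptor for interleukin 33, was seen at day 7 alone and at least 34.7-fold higher. The other probe of Il1rl1 differed less, with a log2 ratio of 1.47. In the whole list of interleukins and the TNF family 5 of 15 genes were higher and 2 lower. The lowest was Tnfrsf11b, the decoy receptor osteoprotegerin, at 19.2 and 2.39 (-3.01 ± 0.12). Chemokine genes also went both ways, with 6 of 13 higher and 4 lower. The monocyte attractant Ccl7 was at 0.317 and 1.73 (2.45 ± 0.17), and the ligand and receptor pair Cxcl12 and Cxcr4 at ratios of 2.34 ± 0.16 and 2.13 ± 0.18. The membrane-bound chemokine Cx3cl1 was lower, at 5.75 and 1.38 (-2.05 ± 0.11), as were Ccl19 (-1.68 ± 0.11) and the scavenging receptor Ackr3 (-1.64 ± 0.32). The medians of both lists, 0.45 and 0.55, turned below 0 under own-design scaling.

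Interferon response genes lay more often on the lower side. Of 14 measured genes 5 were lower and 3 higher, with a median of -0.55 that stayed below 0 under every alternative run. The ubiquitin-like modifier Isg15 was at 3.13 and 0.496 (-2.66 ± 0.13), the transcription factor Irf7 at 1.97 and 0.593 (-1.73 ± 0.13), and the exonuclease Isg20 at 4.39 and 1.79 (-1.3 ± 0.12). The highest of the 3 that were higher was Ifitm1, a membrane protein that blocks viral entry, with levels of 0.789 and 18.3 (4.54 ± 0.16). The guanylate-binding protein Gbp2, also higher, was at 2.66 and 10.1 (1.92 ± 0.15). The transcription factor Irf1 was seen at day 7 alone (at least 3.5-fold higher) and Oasl in the uninjured artery alone (at least 3.57-fold lower). The promoter of Isg20 (RefSeq, GRCr8, chr1:142239809-142240108, plus strand) is shown with the motif GAAA, 2 free bases and GAAA in capitals, a core of the element that interferon-activated factors read.
Isg20: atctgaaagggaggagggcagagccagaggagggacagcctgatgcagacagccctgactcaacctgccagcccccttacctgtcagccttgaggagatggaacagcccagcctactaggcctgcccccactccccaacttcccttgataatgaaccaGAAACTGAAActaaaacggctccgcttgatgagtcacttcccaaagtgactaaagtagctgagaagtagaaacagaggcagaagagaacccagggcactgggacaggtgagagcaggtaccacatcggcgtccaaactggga
That motif was searched on both strands, a search added after the values were seen. It was in 3 of the 4 promoters of members that were lower and in 7 of the 9 of the other members, against 2.85% of the promoters of measured genes.

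Few T and NK cell genes were measured on both arrays. Of 8 measured genes 2 were higher and none lower, with a median of 0.20 that kept its sign in 5 of 10 alternatives. The defining chain Cd3e was at 0.0706 and 0.0598, close to background on both arrays (-0.24 ± 1.47), and Cd3d at 0.826 and 0.75 (-0.14 ± 0.12). Seen at day 7 alone were Cd8a, at 0.115, the granule protease Gzmk (at least 5.16-fold higher) and Thy1, which fibroblasts and neurons also carry (at least 3.02-fold higher). No member was seen in the uninjured artery alone. Only 2 genes each of the B cell and mast cell lists were measured on both arrays, and their summed levels were 1.30 and 0.985 for B cells and 0.704 and 0.402 for mast cells. The B cell receptor chain Cd79b was seen in the uninjured artery alone (at least 4.19-fold lower), one of 3 members with such a bound. The B cell signalling genes Blk and Blnk were seen at day 7 alone, at least 2.67-fold and 2.44-fold higher.

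Lysosomal enzymes break down engulfed debris in macrophages, and 10 of 28 were higher, none lower, with a median of 0.55 that turned below 0 under own-design scaling. The collagen-degrading cathepsin Ctsk was at 1.23 and 11.3 (3.2 ± 0.16) and cathepsin Z (Ctsz) at 0.117 and 1.02 (3.12 ± 0.25). Glycosidases differed less, with ratios of 1.72 ± 0.15 for the galactosidase Glb1, 1.7 ± 0.16 for the sialidase Neu1 and 1.61 ± 0.15 for the glucosidase Gaa.

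Lipid uptake, storage and efflux genes had a median of 1.25 (0.04 under own-design scaling), with 12 of 21 higher and 2 lower. Apolipoprotein D (Apod), a small lipid carrier also made by fibroblasts and Schwann cells, had the highest ratio of all, with levels of 0.156 and 97.7 (9.29 ± 0.23, 626-fold). Apolipoprotein E (Apoe), which carries cholesterol out of macrophages, was already bright at 10.6 and reached 139.8 (3.72 ± 0.13). The fatty acid binding protein Fabp5 was at 1.91 and 40.1 (4.39 ± 0.15) and the lipoprotein receptor Scarb1 at 0.26 and 1.11 (2.1 ± 0.18). Acsl4, which activates polyunsaturated fatty acids, was lower at 1.89 and 0.49 (-1.95 ± 0.11). Iron and redox genes were mixed, 8 of 24 higher and 3 lower. Haem oxygenase 1 (Hmox1) was at 0.364 and 2.67 (2.88 ± 0.05), the phagosomal metal transporter Slc11a1 at 0.105 and 0.714 (2.76 ± 0.28) and the iron exporter ferroportin (Slc40a1) at 0.0804 and 0.375 (2.22 ± 0.38). The glutathione transferase Gsta1, by contrast, was at 27.2 and 7.87 (-1.79 ± 0.08).

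Contractile smooth muscle genes had the lowest median of the lists shown in the plot of list members, -2.23, and between -3.45 and -1.97 under the 10 alternatives. All 14 members on both designs were measured, 10 were lower and 1 higher. Tropomyosin 2 (Tpm2) was among the brightest probes of the uninjured array at 195 and was at 14 at day 7 (-3.8 ± 0.14), and Tpm1 went from 108 to 15 (-2.85 ± 0.14). Calponin (Cnn1), which damps the myosin motor, was at 9.25 and 1.1 (-3.08 ± 0.11), and nexilin (Nexn), an actin-bundling protein, at 31.5 and 4.92 (-2.68 ± 0.13). Transgelin (Tagln), a defining marker of these cells, was at 151 and 33 (-2.2 ± 0.13), and Myl9, the light chain whose phosphorylation starts contraction, at 62.7 and 13.1 (-2.26 ± 0.14). All 6 of these probes stayed above the array's 75th percentile at day 7, and the summed level of the list was 652.5 on the uninjured and 113.7 on the day 7 array. The defining genes Acta2 and Myh11 were not among the named probes of both designs and are not analysed here. Smoc2, a secreted matricellular protein, was the member that was higher (5.98 and 15.5, 1.37 ± 0.14).

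None of the 8 promoters found for the contractile genes that were lower held a CArG box, the site of serum response factor (Srf), in the 300 bases searched on both strands, against 1.64% of all 27457 promoters. This says only that the letters are not in this window.

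**Figure D3:**
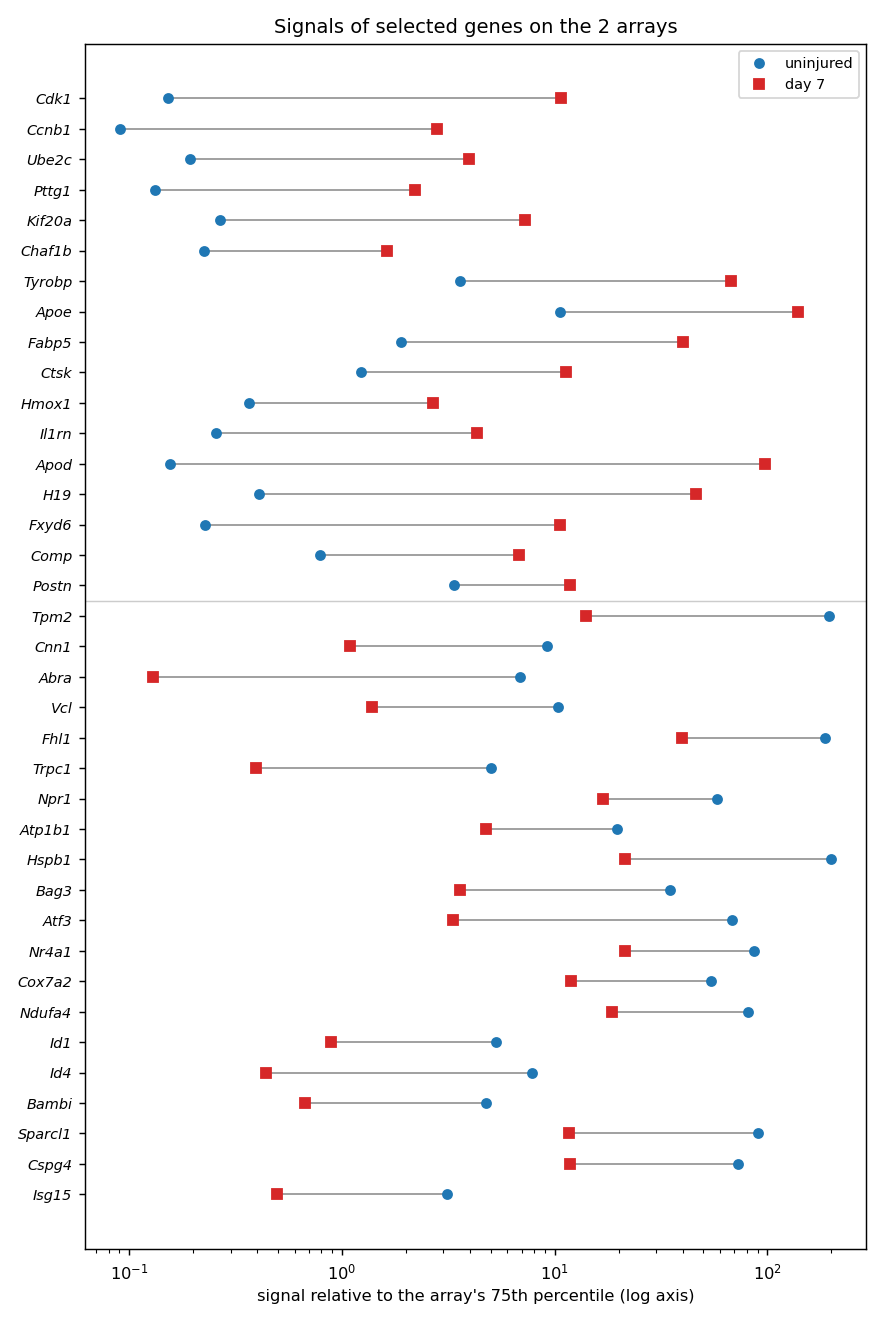
Levels of 37 genes on the uninjured array (blue circles) and the day 7 array (red squares), on a log axis with 1 at the array's 75th percentile. Genes above the grey line were higher at day 7 and those below it lower. Vcl was at -0.24 at its other probe and at 0.19 in the authors' deposited table. The gap within a row is the comparison (Apod, 0.156 and 97.7; Tpm2, 195 and 14), and rows are not comparable with each other.

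Regulators of the actin cytoskeleton went both ways: 7 of 16 were lower and 4 higher, with a median of -0.87. Abra, which frees the Srf cofactor MRTF by binding actin, had the lowest ratio of all genes measured on both arrays, with levels of 6.89 and 0.13 (-5.73 ± 0.20). Vinculin (Vcl), which ties actin to adhesion sites, was at 10.3 and 1.39 (-2.9 ± 0.08, but 0.19 in the authors' deposited table). The other probe of Vcl was within 2-fold, at -0.24. The LIM protein Fhl1 was at 187 and 39.6 (-2.24 ± 0.08) and the muscle cofilin Cfl2 at 1.31 and 0.339 (-1.95 ± 0.20). Of the 4 members that were higher, Coro1a and Capg (above) and the Arp2/3 subunit Arpc1b (3.72 and 15.3, 2.04 ± 0.14) are known from motile and phagocytic cells. The other was Fhl2, a LIM protein of muscle, at 0.268 and 0.635 (1.24 ± 0.18, 0.02 under own-design scaling), named after its values were seen. Other muscle genes among the 30 lowest were Mustn1 (13.3 and 1.13, -3.56 ± 0.08), the muscle kinase gene Srpk3 (3.42 and 0.351, -3.29 ± 0.20), and the myosin phosphatase catalytic chain Ppp1cb (12.5 and 1.31, -3.25 ± 0.11).

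Calcium entry genes of the muscle were among those that were lower, although the calcium list as a whole was near the rest, with 5 of 14 lower, 2 higher and a median of -0.39. The cation channel Trpc1 was at 5.03 and 0.394 (-3.67 ± 0.17) and its partner Stim1, the sensor of the calcium store, at 4.89 and 1.05 (-2.21 ± 0.11). The pore of the L-type channel, Cacna1c, which admits the calcium that triggers contraction, was at 1.62 and 0.614 (-1.4 ± 0.05). The store-release channel Itpr3 and the store-operated channel Orai1 were higher, from dim levels (0.0947 and 0.55, 2.54 ± 0.34, and 0.111 and 0.364, 1.72 ± 0.30). Of 6 potassium channel genes 3 were lower and 2 higher. Abcc9, the regulatory subunit of the ATP-sensitive channel, was at 2.17 and 0.459 (-2.24 ± 0.15). Kcna1, a channel of nerve and other cells, was seen at day 7 alone and at least 21.9-fold higher.

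Receptors and enzymes of vascular tone went both ways. The ATP-gated channel P2rx1, which carries sympathetic contraction, was at 3.97 and 0.373 (-3.41 ± 0.18), and the adrenergic receptor Adra1d at 3.79 and 0.746 (-2.34 ± 0.09). Npr1, the guanylate cyclase receptor for natriuretic peptides, was at 58.1 and 16.9 (-1.78 ± 0.04). The angiotensin receptor Agtr1a was higher at 1.24 and 7.33 (2.56 ± 0.06), as was the serotonin receptor Htr2b at 0.163 and 0.529 (1.7 ± 0.21). In all 3 of 11 receptor genes were higher and 3 lower. On the nitric oxide pathway the endothelial synthase Nos3 was higher, at 0.328 and 1.34 (2.03 ± 0.05). Among its lower genes were the cyclase chain Gucy1b1 at 0.827 and 0.196 (-2.08 ± 0.38) and the cyclic GMP phosphodiesterase Pde5a at 0.666 and 0.147 (-2.17 ± 0.50). Ddah1, which removes an inhibitor of the synthase, was also lower at 14.9 and 2.3 (-2.7 ± 0.12). The other arginine-using enzyme, arginase 1 (Arg1), known from macrophages, was at 0.35 and 1.67 (2.25 ± 0.15). Tbxas1, the thromboxane synthase of platelets and macrophages, was at 0.18 and 4.45 (4.63 ± 0.21).

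Among connexins, the smooth muscle connexins Gja1 and Gjc1 were lower, Gja1 at 19.6 and 5.47 (-1.84 ± 0.04) and Gjc1 at 0.789 and 0.345 (-1.2 ± 0.21), and the endothelial connexin Gja4 was higher at 2.06 and 6.16 (1.58 ± 0.14). The sodium pump subunit Atp1b1 was at 19.6 and 4.78 (-2.03 ± 0.13). The pump regulators Fxyd6 and Fxyd2 were higher, Fxyd6 by one of the 10 largest ratios (0.227 and 10.6, 5.54 ± 0.20) and Fxyd2 at 0.813 and 4.48 (2.46 ± 0.16), whereas Fxyd1, the form of muscle, was at 21 and 12.2 (-0.78 ± 0.14).

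Heat shock genes had the second lowest median of the lists described, -1.56, with 11 of 13 lower and none higher. The small heat shock protein Hspb1, which caps and protects actin filaments, went from 199 to 21.4 (-3.22 ± 0.12), and Hspb6, a target of relaxing signals in smooth muscle, from 14.5 to 2.42 (-2.59 ± 0.12). Their co-chaperone Bag3 was at 34.7 and 3.6 (-3.27 ± 0.08). The J-domain proteins Dnaja1 and Dnajb4, which hand clients to Hsp70, had ratios of -2.37 ± 0.11 and -1.99 ± 0.12. Hspb8 was the member on the other side, within 2-fold (0.59 ± 0.24). The 2 promoters are shown because both genes were among the 30 lowest, with GAANNTTC, inverted units of the element that heat shock factor binds, in capitals (RefSeq, GRCr8, Hspb1 at chr12:26432252-26432551 on the minus strand and Bag3 at chr1:192533210-192533509 on the plus strand).
Hspb1: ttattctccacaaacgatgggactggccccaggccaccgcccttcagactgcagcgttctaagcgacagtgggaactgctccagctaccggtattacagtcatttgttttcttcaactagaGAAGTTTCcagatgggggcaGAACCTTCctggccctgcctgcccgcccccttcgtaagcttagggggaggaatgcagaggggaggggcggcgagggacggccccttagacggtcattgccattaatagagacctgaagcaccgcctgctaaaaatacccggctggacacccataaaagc
Bag3: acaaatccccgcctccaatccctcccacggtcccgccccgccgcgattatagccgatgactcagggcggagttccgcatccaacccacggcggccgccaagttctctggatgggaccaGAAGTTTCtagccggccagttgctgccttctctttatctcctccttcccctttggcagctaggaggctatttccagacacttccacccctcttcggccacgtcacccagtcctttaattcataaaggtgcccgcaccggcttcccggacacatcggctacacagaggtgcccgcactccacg
The motif, searched on both strands after the values were seen, was in 6 of the 8 promoters of heat shock members that were lower and in 1 of the 2 of other members, against 6.02% of the promoters of measured genes. 
Immediate-early transcription factors, which cells induce within minutes of a stimulus, had 6 of 14 genes lower and 2 higher, with a median of -0.53. Atf3 was bright in the uninjured artery at 68.1 and at 3.34 at day 7 (-4.35 ± 0.12). The nuclear receptors Nr4a3 and Nr4a1 were at 10.4 and 0.491 (-4.4 ± 0.13) and at 86.2 and 21.5 (-2.01 ± 0.09), and Klf4 was at 15.9 and 2.02 (-2.98 ± 0.11). Csrnp1 had one of the lowest ratios with a wide error, since its day 7 level of 0.0655 was near background (-4.56 ± 1.17). The other probe of Csrnp1 was at -1.59. The members that were higher were the phosphatase Dusp5 (0.276 and 1.16, 2.06 ± 0.16) and Egr2 (0.465 and 1.64, 1.82 ± 0.13), the latter also a factor of myelinating Schwann cells. These genes and the heat shock genes are also induced while tissue is handled, and the part of handling in these values was not tested.

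Subunits of the respiratory chain and ATP synthase were lower as a group: 23 of 34 were at least 2-fold lower and none higher, with a median of -1.40 that was between -2.62 and -1.05 under the 10 alternatives. The list's summed level was 1190 on the uninjured and 485.5 on the day 7 array. Uqcrb of complex III was at 0.617 and 0.103 (-2.58 ± 0.31, but 0.45 in the authors' deposited table), Ndufa5 of complex I at 47.9 and 8.54 (-2.49 ± 0.13) and Cox7a2 of complex IV at 54.5 and 12 (-2.19 ± 0.13). The catalytic ATP synthase subunit Atp5f1b was at 2.07 and 0.365 (-2.5 ± 0.11). Complexes I and IV and the ATP synthase each had several members among the genes that were lower, while of complex III Uqcrb alone was among them. Uqcrc2 was the only measured member with a ratio above 0 (0.25 ± 0.14).

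Other parts of energy metabolism moved less. Of 33 genes of the citrate cycle and fatty acid oxidation 4 were lower and 1 higher, with a median of -0.37. The succinyl-CoA ligase chain Suclg1 was at 17.3 and 4.51 (-1.94 ± 0.13), and the acyl-CoA dehydrogenase Acadm at 8.14 and 2.62 (-1.64 ± 0.08). The uncoupling protein Ucp2, known from macrophages, was the member that was higher (0.28 and 1.54, 2.46 ± 0.06). In glycolysis 2 of 14 genes were higher and 2 lower. Hk3, the hexokinase of myeloid cells, was at 0.229 and 3.29 (3.84 ± 0.19) and the general form Hk1 at 2.17 and 9.18 (2.08 ± 0.14). Slc2a4, the insulin-responsive glucose transporter of muscle and fat, was at 9.94 and 2.15 (-2.21 ± 0.04).

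Protein synthesis and turnover were closer to the rest. Of 12 cytosolic ribosomal proteins 4 were lower and none higher (median -0.72), led by Rpl15 (2.85 and 0.497, -2.52 ± 0.10) and Rpl24 (82.8 and 23.8, -1.8 ± 0.14, but 0.36 in the authors' deposited table). Of 16 proteasome subunits 2 were lower and none higher (median -0.29). Of 17 translation factors and tRNA synthetases 4 were lower and 2 higher, with the helicase Eif4a2 at 35.9 and 5.04 (-2.83 ± 0.13). Ribosomal protein genes have many near-identical copies, so that a probe may read more than 1 of them. In the secretory pathway and unfolded protein response 2 of 28 were higher and 3 lower. Both shares were below the 16.1% and 16.4% over all measured genes, and the list median was 0.03. The 3 lower were Herpud1 (4.27 and 0.786, -2.44 ± 0.11), Hyou1 (5.1 and 1.29, -1.98 ± 0.11) and the transcription factor Atf4 (37.3 and 9.54, -1.97 ± 0.09). Another 23 members were within 2-fold, among them Hspa5 (-0.01 ± 0.14) and Hsp90b1 (-0.20 ± 0.13). The disulphide isomerase Pdia6 and the translocon chain Sec61a1 were the 2 higher, with ratios of 1.28 ± 0.13 and 1.28 ± 0.19. Cholesterol synthesis genes were within 2-fold but for Pmvk (3.86 and 1.37, -1.5 ± 0.11), with 10 measured.

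The matrix differed by class. Matricellular proteins, which signal to cells more than they bear load, had a median of 1.64, with 7 of 11 higher and 2 lower. Osteopontin (Spp1), a ligand of integrins on macrophages and migrating muscle cells, was at 16.5 and 116 (2.82 ± 0.04). The cartilage matrix protein Comp was at 0.792 and 6.76 (3.09 ± 0.16), Ccn5 at 2.1 and 12.5 (2.57 ± 0.10), the TGF-beta induced protein Tgfbi at 4.56 and 20.9 (2.19 ± 0.14), and periostin (Postn) at 3.38 and 11.8 (1.8 ± 0.14). Tenascin C (Tnc) and vitronectin (Vtn) were seen at day 7 alone, at least 24.9-fold and 10.9-fold higher. The 2 members that were lower had been bright: Sparcl1 was at 90.6 and 11.7 (-2.96 ± 0.09) and Ccn2, a target of stretch and TGF-beta, at 179 and 33.2 (-2.43 ± 0.04).

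Structural matrix genes were nearer to the rest. Only 4 collagen genes could be measured: Col8a1, the short-chain collagen of injured vessels, was at 0.204 and 0.963 (2.24 ± 0.18), Col1a1 at 126 and 303 (1.26 ± 0.14), Col3a1 at 931 and 446 (-1.06 ± 0.13) and Col18a1 at 32.6 and 24.5 (-0.42 ± 0.14). The fibrillar chains of types I and III thus lay on opposite sides, but Col1a1 was at 0.04 under own-design scaling and Col3a1 was at 0.09 under quantile normalization and at 0 in the authors' deposited table. Of 10 collagen-processing genes 4 were higher and none lower, led by the cross-linking oxidase Loxl2 (0.175 and 0.804, 2.2 ± 0.20). None of 8 elastic fibre genes was higher, and Ltbp4, which helps elastin assemble, was the one that was lower (6.34 and 1.78, -1.83 ± 0.12). Among 13 proteoglycan genes 3 were lower and 1 higher: the pericyte and muscle proteoglycan Cspg4 was at 72.5 and 11.8 (-2.62 ± 0.09), and Aspn, a small leucine-rich member, at 4.12 and 14.2 (1.79 ± 0.15). In the basement membrane the laminin chain Lamb2 was at 10.1 and 2.37 (-2.08 ± 0.12) and nidogen 2 (Nid2) at 0.195 and 3.2 (4.04 ± 0.20).

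Matrix proteases were mostly undetected before injury. Of 25 protease and inhibitor genes on both designs 13 were measured on both arrays, 2 of these being higher and 3 lower, and 10 more were seen at day 7 alone with bounds of 2-fold or more. The macrophage elastase Mmp12 was at 9.14 at day 7 and at least 138-fold higher, matrilysin (Mmp7) at least 47.2-fold, urokinase (Plau) at least 7.84-fold and gelatinase B (Mmp9) at least 6.63-fold. The inhibitor Timp1 was at 12.1 and 33 (1.45 ± 0.04). The protease Adamts9 was at 4.7 and 0.609 (-2.95 ± 0.12). In the coagulation list tissue factor (F3), which starts clotting, was lower at 4.66 and 0.873 (-2.42 ± 0.11), and its inhibitor Tfpi higher at 0.139 and 0.695 (2.32 ± 0.24), in a list with 3 of 12 genes on each side.

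In TGF-beta and BMP signalling 9 of 20 genes were lower and 4 higher, with a median of -0.80. Targets and modulators of BMP were among the lowest members: Id4 was at 7.86 and 0.441 (-4.16 ± 0.16), Id1 at 5.28 and 0.89 (-2.57 ± 0.09), and the decoy receptor Bambi at 4.78 and 0.669 (-2.84 ± 0.12). The ligand Gdf10 was at 3.7 and 0.506 (-2.87 ± 0.09). Higher were the ligand Tgfb1 (0.289 and 1.06, 1.88 ± 0.06), the activin chain Inhbb (0.168 and 1.08, 2.69 ± 0.20) and the antagonist Grem1 (0.242 and 1.15, 2.24 ± 0.18). The other probe of Grem1 was within 2-fold, at 0.54. Among other growth factors 2 of 16 were higher and 2 lower. Insulin-like growth factor 1 (Igf1), a mitogen of smooth muscle, was at 23.8 and 64.3 (1.44 ± 0.13), and pleiotrophin (Ptn) was seen at day 7 alone (at least 8.21-fold higher). The Notch ligand Jag1 was at 1.66 and 0.215 (-2.95 ± 0.35) and the receptor Notch4 at 0.229 and 0.624 (1.45 ± 0.17).

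The imprinted RNA H19, which is expressed in fetal and injured vessels, had the second highest ratio of all, with levels of 0.409 and 46.1 (6.82 ± 0.17). Its neighbour Igf2 was within 2-fold (1.47 and 2.83, 0.95 ± 0.14), and of the 9 measured imprinted genes H19 alone was higher and 2 were lower. Of 7 clock genes 2 were lower and none higher: the repressor Nfil3 was at 4.76 and 0.729 (-2.71 ± 0.11) and Per2 at 2.77 and 0.758 (-1.87 ± 0.10). The hour at which each artery was taken is not given.

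Markers of other cells in the carotid wall and its surroundings were read from lists chosen with earlier results known. Endothelial genes had a median of 1.53 (0.31 under own-design scaling), with 10 of 15 higher and none lower, and a summed level of 54.3 on the uninjured and 113.7 on the day 7 array. The largest parts of that sum were Vcam1 (17.98 and 45.85) and Aqp1 (12.8 and 23.91, within 2-fold). The junction protein claudin 5 (Cldn5) was at 0.254 and 1.87 (2.88 ± 0.19), endomucin (Emcn) at 0.0941 and 0.567 (2.59 ± 0.33), the protein C receptor Procr at 0.111 and 0.659 (2.57 ± 0.27) and the transcription factor Sox18 at 0.515 and 2.86 (2.48 ± 0.16). The defining genes Pecam1, Cdh5 and Vwf were not among the named probes of both designs. Fibroblast genes had a median of 0.47 with 1 of 7 higher and 1 lower, and summed levels of 103.8 and 105.7. The fibroblast receptor Pdgfra was at 2.05 and 1.71 (-0.26 ± 0.10), and Cygb, a globin of these cells, at 18 and 3.17 (-2.5 ± 0.12).

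Several genes of nerve were higher. Of 7 Schwann cell myelin genes 4 were higher and none lower (median 1.82), with the myelin enzyme Cnp at 0.139 and 1.03 (2.9 ± 0.24). Periaxin (Prx) and plasmolipin (Pllp), also of myelin, were seen at day 7 alone and at least 21.8-fold and 28.9-fold higher. Ngfr, the neurotrophin receptor of repair Schwann cells, was at 0.0773 and 2.08 (4.75 ± 0.12) and their transcription factor Sox10 at 0.518 and 8.88 (4.1 ± 0.17). In the list of immature and repair Schwann cells that holds both, 3 of 6 measured genes were higher and 1 lower, with a median of 0.92 that was -0.29 under own-design scaling. Of 3 measured sympathetic genes 2 were higher: neuropeptide Y (Npy), the cotransmitter of noradrenaline, was at 33.8 and 106.6 (1.66 ± 0.04) and galanin (Gal) at 0.691 and 1.99 (1.52 ± 0.05). The amount of nerve in each piece of tissue is not given, and its part in these values was not tested.

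Lists that mark blood and neighbouring tissues had medians above, below or close to 0. Over all measured genes 16.1% were higher and 16.4% lower. Platelet and red cell genes had a median of 1.39, with 4 of 6 higher and none lower, such as the platelet glycoprotein Gp9 (0.194 and 1.11, 2.51 ± 0.19) and the haem synthesis enzyme of red cells, Alas2 (0.116 and 0.666, 2.53 ± 0.25). The platelet chemokine Pf4, which macrophages also make, was at 17.8 and 46.9 (1.4 ± 0.09) and makes up most of the list's summed level of 18.9 and 49.9. Adipocyte genes were lower in 3 of 5 cases and higher in 2 (median -1.08), with Cidea of the lipid droplet at 3.54 and 0.855 (-2.05 ± 0.11) and adipsin (Cfd), which macrophages also make, at 3.12 and 9.44 (1.6 ± 0.14). Their summed level was 23.4 and 18.7. Striated muscle genes had a median of 0.00, with 2 of 13 on each side and a summed level of 8.19 and 7.47. Skeletal actin (Acta1) was lower at 1.11 and 0.204 (-2.45 ± 0.36), while the fast-fibre actinin Actn3 was higher at 0.191 and 1.07 (2.49 ± 0.19), as was the embryonic myosin Myh3 at 0.133 and 0.374 (1.49 ± 0.28, but -0.01 in the authors' deposited table). The cardiac myosin Myh6 was seen in the uninjured artery alone (at least 19.6-fold lower). Of 5 measured plasma protein genes of the liver none was higher and 1 lower, Itih3 at 1.74 and 0.129 (-3.75 ± 0.65). Their median of 0.22 kept its sign in 3 of 10 alternatives. Another 4 were seen in the uninjured artery alone, led by albumin (Alb, at least 22.8-fold lower). The summed level over the 14 members on both designs was 4.04 and 1.33. The part of each tissue in the results for other genes was not tested.

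Among the 30 highest ratios were also genes in no list. C1qtnf3, a secreted relative of complement C1q made by adipose and cartilage cells, was at 0.0743 and 4.25 (5.84 ± 0.39), the urea cycle enzyme Ass1, which remakes arginine, at 0.114 and 2.35 (4.36 ± 0.27), mesothelin (Msln), a surface protein of mesothelial cells, at 0.316 and 6.02 (4.25 ± 0.18), and Shroom2, an actin-binding protein, at 0.135 and 2.4 (4.16 ± 0.22). Genes seen at day 7 alone included glutamine synthetase (Glul, at least 45-fold higher), myocilin (Myoc, at least 43.6-fold), the aspartic protease Napsa (at least 26.9-fold) and the aldo-keto reductase Akr1b8 (at least 25.8-fold).

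Among the 30 lowest were B3gat2, which starts the HNK-1 sugar of nerve glycoproteins (2.89 and 0.129, -4.49 ± 0.22), Spink8, a protease inhibitor of the Kazal type (12.7 and 0.87, -3.86 ± 0.08), and carboxypeptidase E (Cpe), which matures peptide hormones (9.76 and 0.81, -3.59 ± 0.10). The serine protease Prss23 was at 31.3 and 3.13 (-3.33 ± 0.08), the polycomb protein Cbx7 at 3.65 and 0.36 (-3.34 ± 0.10) and the survival factor Bcl2l2 at 1.77 and 0.18 (-3.3 ± 0.39). The Ras relatives Rasd2 and Rasl12 were at 3.25 and 0.24 (-3.76 ± 0.13) and at 17.9 and 1.86 (-3.27 ± 0.12). Seen in the uninjured artery alone were the alcohol dehydrogenase Adh7 (at least 19.8-fold lower), the organic cation transporter Slc22a3 (at least 15.7-fold), the anchoring protein Akap6 (at least 13.8-fold) and the phospholipase Plcb1 (at least 8.87-fold).

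**Figure D4:**
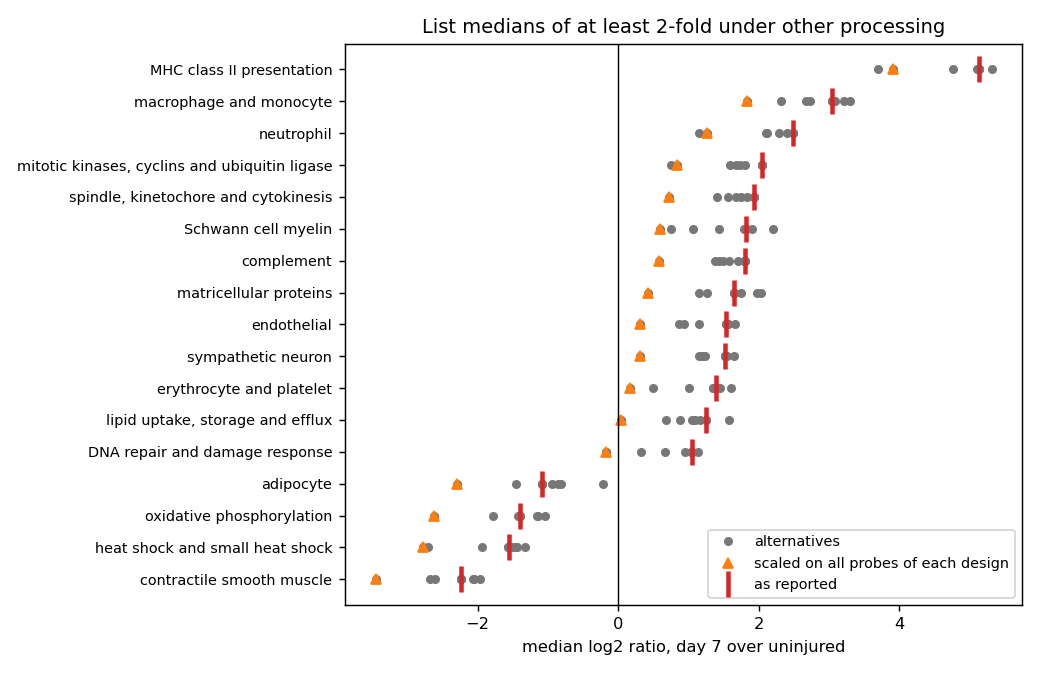
Median log2 ratio of the 17 gene lists whose median was at least 2-fold (red bars) and under each alternative processing (grey points; orange triangles for own-design scaling). The 4 lists that were lower stay below 0 in all of them, and of the 13 that were higher only DNA repair crosses 0, at -0.17 and -0.18.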

How the data were processed

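RNA of 1 uninjured and 1 day 7 carotid artery was read on one-colour Agilent rat arrays, and groups came from the sample titles. The deposited intensity of a spot is background-subtracted by the scanner software Agilent Feature Extraction, per the file headers, which name release 10.7.3.1 (uninjured) and 11.0.1.1 (day 7). Only 10.7.3.1 is in the submitters' processing notes. The headers give the array designs 014879 (uninjured) and 028282 (day 7), on rn4. The authors' deposited table has log2 values in 9260 rows, with column medians of 7.64 and 7.62; its normalization and centring are not given in the sources used here. On 5076 shared probes it correlated with the scanner's log2 signals at r = 0.947 (uninjured) and 0.979 (day 7), with slopes of 0.946 and 1.10, in the same direction.

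Controls were dropped, as were outlier-flagged spots (0.242% and 1.46% of those for genes). Spots of 1 probe were averaged as log2. Only the 10602 probe names on both designs were used (10587 unflagged on both), and each array's 75th percentile over them was subtracted (127.0 and 230.6 intensity units). Of the shared probes, 70.0% and 79.5% were well above background, and no spot was saturated. The number of arrays limits the precision. The files give no gene names: accessions of 8042 probes (76.0%) matched a RefSeq table of GRCr8, used for names only. The brightest probe on average stands for a gene. The SD of replicate spots (medians 0.206 and 0.111, from 258 and 1365 probes) was interpolated over signal. A bound divides the bright level by the dim one or, if larger, by the least level well above background on the dim array.

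No model was fitted. Calls were checked on arrays simulated from the uninjured one, with known ratios, small random error and every probe taken as well above background. Bounds were checked on a few made-up values only. Neither check covers the larger disagreement between probes of a gene or the difference between the designs. The gene lists and members were chosen with earlier results of these data known. Named genes are the 30 highest and 30 lowest ratios with a regular symbol and no contradicting probe, the 12 largest bounds on either side, of every list at most 5 members on the side of its median and 3 on the other, and defining genes. Some genes that this rule selects are not reported here. The alternatives were 3 other scalings, normexp (limma 3.58.1, offset 50, on the median spot signal since the mean is not in the files), flagged spots kept, the median of a gene's probes, other filters on dim genes, the authors' deposited table and, added after seeing the data, a loess fit of the ratio on signal. Promoters are those of RefSeq on GRCr8. Python 3.11.15 and pandas 2.3.3 were used.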

Additional observations from a re-analysis of the deposited data

Results flagged for a closer look

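A few results at day 7 lay opposite to those at day 21, by at least 2-fold on each side and against the same uninjured array. Only the genes named above and the list medians were searched, and no share over all genes was counted. The results below are therefore not the full set. The list members Kcnip3 (1.82 at day 7 and -1.26 at day 21) and Cd248 (1.11 and -1.56) also met this rule. The difference between the days was not tested, with 1 array each. The day 21 array has the design and the scanner software release of the uninjured array, while the day 7 array has neither. The sodium pump regulator Fxyd6 was at a log2 ratio of 5.54 at day 7 and -1.5 at day 21, with a level of 0.227 before injury, 10.6 at day 7 and 0.08 at day 21. The neurotrophin receptor Ngfr was at 4.75 and -1.11, with levels of 0.0773, 2.08 and 0.0359, of which the first and the last are near background. The sympathetic neuron list had medians of 1.52 and -1.54, with neuropeptide Y (Npy) at 1.66 and -2.17 (levels, in the same order, of 33.8, 106.6 and 7.49) and galanin (Gal) at 1.52 and -1.54. The embryonic myosin Myh3 was at 1.49 and -1.99, with levels of 0.133, 0.374 and 0.0336, of which the last is near background. The day 7 ratio of Myh3 was -0.0068 in the authors' deposited table. The scavenging chemokine receptor Ackr3 was opposite in the other sense, at -1.64 and 1.20, with levels of 0.752, 0.242 and 1.73.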

How the results depend on the processing

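The counts of genes at least 2-fold higher and lower, 847 and 861, were 181 and 3132 with own-design scaling, 510 and 1434 with median scaling, 338 and 512 with normexp, 1830 and 1542 with no filter on dim genes (7798 genes), and 418 and 1665 in the authors' deposited table (4116 genes). The higher genes were 49.6% of those called, against 5.46%, 26.2%, 39.8%, 54.3% and 20.1% in that order and 40.7% with quantile normalization. The other 5 alternatives kept both counts within 1.5 times. Of the 17 lists with a median of at least 2-fold, 16 kept their sign throughout; DNA repair turned to -0.17 with own-design scaling and -0.18 in the authors' deposited table. Of 197 named genes at least 2-fold apart, 189 kept their sign wherever they were measured and 143 stayed at least 2-fold apart. The exceptions were Csf1r (-0.023 with own-design scaling), Col3a1 (0.091 with quantile normalization, 0 in the authors' deposited table) and, in the authors' deposited table, Wee1 (1.09), Cdkn1a (0.82), Vcl (0.19), Uqcrb (0.45), Rpl24 (0.36) and Myh3 (-0.0068). Over shared probes the ratios of that table correlated with those of the scanner signals at r = 0.821, and the cause of the difference was not tested. Genes near background on 1 array, such as Csrnp1 and Cd3e, have the widest errors. No paired analysis was possible because each group has 1 array and its label carries the number 1. No replicate could be left out.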
